A study of Mus musculus with 6 samples.

Results

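The S100 family is a group of small calcium-binding proteins, and its members were followed here in mouse leukaemia cells that either lack or carry AID, the activation-induced cytidine deaminase. The members were 9 genes, S100a1, S100a3, S100a4, S100a6, S100a8, S100a9, S100a10, S100a11 and S100a13, and every probe set whose annotation gave exactly 1 of these symbols was taken. This gave 11 probe sets for 8 of the genes, out of 45037 probe sets and 18193 genes measured. S100a11 had no probe set to itself. Its one probe set is also annotated to a pseudogene, S100a11-ps, and to Gm12854, and is described apart from the members. The family was chosen with the differences between the AID-/- and AID+/+ arrays in view. The differences of its members are therefore given as a description, without a test.

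The series held 6 Affymetrix expression arrays of leukaemia cells. AID-/- leukaemia, which lacks this enzyme of somatic hypermutation and class switching, was measured on 3 arrays, and AID+/+ leukaemia, with the gene intact, on 3. All 6 samples are labelled Balb/c, and the series' title describes the disease as acute lymphoblastic leukaemia driven by the BCR-ABL1 fusion kinase, which both groups therefore share. The labels call the arrays biological replicates but do not give the age or sex of the animals, how BCR-ABL1 was introduced, or whether each leukaemia came from its own animal, so the spread between arrays may be partly technical.

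Most S100 proteins form dimers that change shape when calcium binds to their EF-hand loops and then attach to target proteins, such as annexins and the cytoskeleton. Several are also released from cells and act on surface receptors, among them TLR4 and RAGE. In blood, S100A8 and S100A9 are best known as abundant proteins of neutrophils and monocytes, while S100A4 and S100A6 are found in many migrating cell types, including activated lymphocytes.

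The deposited values are RMA values on the log2 scale, on which 1 unit is a 2-fold difference in signal. They lay between 2.15 and 14.33, with a median of 4.88 and a lower quartile of 3.50. The files give no detection calls, so low values cannot be called absent, and levels of different probe sets are not compared because their probes differ. Across probe sets, arrays of unlike genotype correlated at a Pearson's r of 0.972 to 0.977, and arrays of like genotype at 0.991 to 0.994 (AID-/-) or 0.995 to 0.996 (AID+/+). The female-specific transcript Xist was at 4.35 to 6.02 in the AID-/- arrays and 11.93 to 12.18 in the AID+/+ arrays, so genotype and sex cannot be told apart. Of 9 B-lineage markers 8 were measured, and their mean level was 11.65 to 11.78 in the AID-/- arrays and 11.31 to 11.49 in the AID+/+ arrays. Among them, the signalling adaptor gene Blnk was higher in AID-/- leukaemia by 2.09 (SE 0.12; limma adjusted p = 2.61e-05). The other 7 did not pass, with differences in both directions, from -0.37 at Pax5 to 0.35 at Cd79b. Over all genes, 18.5% were called.

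In AID-/- leukaemia S100a4 was far lower and S100a10 and S100a13 were higher than in AID+/+ leukaemia, while the groups of S100a3, S100a6, S100a8 and S100a9 overlapped and those of S100a1 lay next to each other without overlapping. S100a4 differed by -4.61 on the log2 scale (24.5-fold lower), S100a10 by 1.40 (2.64-fold higher) and S100a13 by 1.21 (2.31-fold higher). In these bulk samples, fewer cells of a type and less RNA per cell cannot be told apart. In the fit across all genes with limma, 2 of 8 member genes passed the threshold in the higher direction and 1 in the lower, and 5 did not pass. Over all genes, 10.1% were called higher and 8.42% lower. At the level of probe sets, 4 of 11 were called higher and 1 lower, where 7.24% and 7.39% of all probe sets were. Nothing is read from these counts, since the members were chosen on this contrast. The groups did not overlap for 4 of the 8 genes, 3 higher and 1 lower, where 17.5% of all genes were without overlap in the higher direction and 19% in the lower. The median difference of the 8 genes was -0.08, and that of all genes was -0.03.

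**Figure D1:**
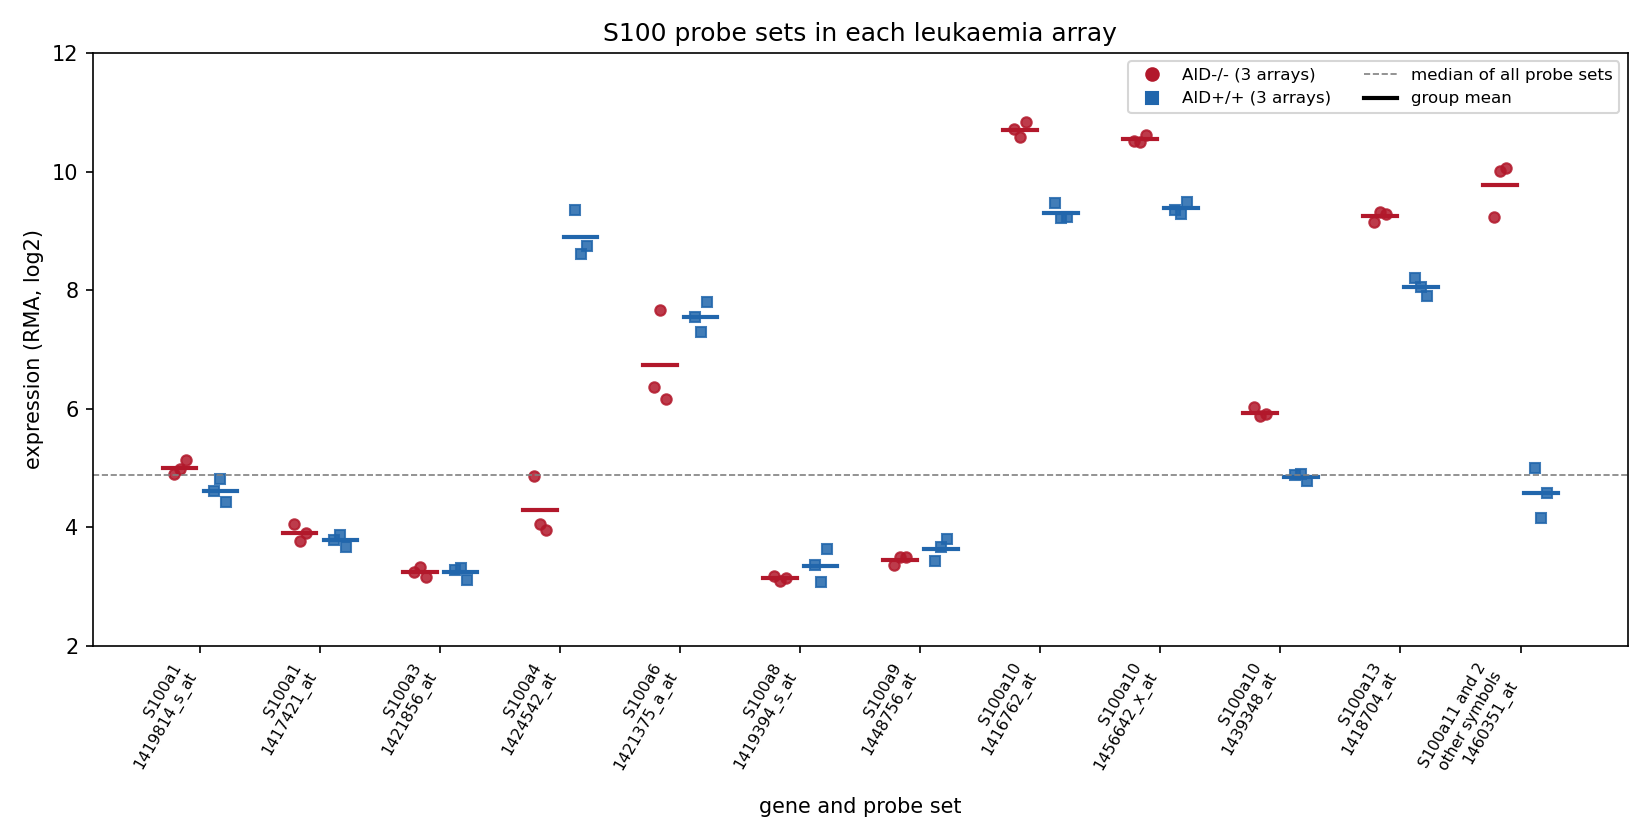
Expression (RMA, log2) in each array of every probe set of the S100 members and of the probe set shared by S100a11 and 2 other symbols. AID-/- arrays are circles, AID+/+ arrays are squares, bars are group means and the dashed line is the median of all probe sets. The AID-/- arrays lie far below the AID+/+ arrays for S100a4 and above them at all 3 probe sets of S100a10 and for S100a13, while S100a6 is split within AID-/- leukaemia.

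S100a4, also called metastasin, binds the heavy chain of non-muscle myosin and is known for its part in cell motility and tumour spread. Its single probe set read 4.86, 4.05 and 3.95 in AID-/- replicates 1, 2 and 3, and 9.35, 8.60 and 8.75 in AID+/+ replicates 1, 2 and 3. All 3 AID-/- arrays were at or below the median of all probe sets, and the highest of them was 3.74 log2 units below the lowest AID+/+ array. The group means were 4.29 ± 0.50 in AID-/- against 8.90 ± 0.40 in AID+/+ leukaemia (SD, n = 3 each), a difference of -4.61 (SE 0.27). Because the AID-/- values lie low on the scale, the size of this difference is approximate. Only 5 of 18193 genes, S100a4 included, had a difference as low or lower. Leaving out each array in turn gave differences between -4.90 and -4.39.

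S100a6, or calcyclin, lies close to S100a4 on chromosome 3 and binds the ubiquitin ligase adaptor CACYBP. It read 6.36, 7.67 and 6.16 in AID-/- replicates 1, 2 and 3, and 7.54, 7.29 and 7.80 in AID+/+ replicates 1, 2 and 3. AID-/- replicate 2 lay among the AID+/+ arrays, and AID-/- replicates 1 and 3 lay 0.93 and 1.13 log2 units below the lowest AID+/+ array. The means were 6.73 ± 0.82 in AID-/- against 7.54 ± 0.25 in AID+/+ leukaemia (SD, n = 3 each), a difference of -0.81 (SE 0.35). Without AID-/- replicate 2 the difference was -1.28 and passed the threshold, and it passed in no other fit that was run. The spread of S100a6 among the AID-/- arrays was wide, since 1.03% of all genes had an SD as large or larger there. For S100a4 that share was 3.11%, and its high AID-/- array was replicate 1, not replicate 2.

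The promoter sequences of S100a4 and S100a6 are shown because these genes lie near each other in the same orientation. S100a4 was lower in every AID-/- array, while the groups of S100a6 overlapped. Any link between these sequences and the values was not tested. Each is the 250 bases before the annotated start on the plus strand of chromosome 3, taken from RefSeq (GRCm38.p6), at chr3:90603520-90603769 for S100a4 and chr3:90612644-90612893 for S100a6. Capitals mark the TATA motif TATAAA.
S100a4: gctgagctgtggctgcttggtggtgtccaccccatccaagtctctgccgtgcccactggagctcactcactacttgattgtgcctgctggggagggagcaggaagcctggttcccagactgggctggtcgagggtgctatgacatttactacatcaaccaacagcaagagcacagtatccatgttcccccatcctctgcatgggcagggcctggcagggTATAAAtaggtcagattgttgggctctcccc
S100a6: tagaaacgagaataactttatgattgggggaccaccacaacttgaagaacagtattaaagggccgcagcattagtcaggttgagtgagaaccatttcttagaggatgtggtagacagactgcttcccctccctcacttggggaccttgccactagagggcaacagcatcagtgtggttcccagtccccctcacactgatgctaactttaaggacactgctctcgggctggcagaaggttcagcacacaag
The S100a4 window holds TATAAA with its first base 31 bases before the start, and the S100a6 window, searched on both strands, holds none. RefSeq promoter windows of 300 bases, from 250 before to 50 after the start, were found for 8 of the 9 members, 11 windows in all. TATAAA on either strand was in 4 of the 11 windows, and in 13.6% of all 32851 windows. These were windows of 4 of the 8 members, S100a3, S100a4, S100a8 and S100a9. In S100a9 it did not lie within the 250 bases before the start. The GC-box core GGGCGG was in 3 of the 11 windows, of S100a3, S100a9 and S100a11, and in 35.7% of all windows. The motifs do not overlap each other in these windows. S100a13 and S100a11, with 14 and 15 CG dinucleotides, held more of them than the other members' windows, which had 0 to 11, and the median of all windows was 7. These matches are a description of the letters.

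S100a10, also called p11, has lost the ability to bind calcium and is held in a complex with annexin A2 at the plasma membrane, where it acts as a plasminogen receptor. Its brightest probe set read 10.71, 10.58 and 10.83 in AID-/- replicates 1, 2 and 3, and 9.47, 9.21 and 9.23 in AID+/+ replicates 1, 2 and 3. The groups were separated by more than 1 log2 unit. The means were 10.71 ± 0.12 in AID-/- against 9.31 ± 0.15 in AID+/+ leukaemia (SD, n = 3 each), a difference of 1.40 (SE 0.11). The other 2 probe sets, read from the same arrays, differed by 1.17 (SE 0.09) and 1.09 (SE 0.09). At the dimmest of them the AID-/- arrays lay at 5.88 to 6.02 and the AID+/+ arrays at 4.77 to 4.89. All 3 probe sets thus put every AID-/- array above every AID+/+ array, by similar amounts. With 1 array left out, the difference at the brightest probe set was 1.34 to 1.49.

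Annexin A2 is the main partner of S100A10. Its brightest probe set read 4.26, 4.58 and 4.44 in AID-/- replicates 1, 2 and 3, and 4.21, 4.69 and 4.79 in AID+/+ replicates 1, 2 and 3. The groups overlapped, with a difference of -0.14 (SE 0.16; limma adjusted p = 0.624). All 3 probe sets of Anxa2 stayed below the median of all probe sets in all 6 arrays.

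S100a11, or calgizzarin, binds annexin A1. The probe set that carries its symbol together with those of S100a11-ps and Gm12854 read 9.24, 10.01 and 10.05 in AID-/- replicates 1, 2 and 3, and 4.99, 4.15 and 4.58 in AID+/+ replicates 1, 2 and 3. The groups were more than 4 log2 units apart. The means were 9.77 ± 0.46 in AID-/- against 4.58 ± 0.42 in AID+/+ leukaemia (SD, n = 3 each), a difference of 5.19 (SE 0.26). Because the AID+/+ values lie low on the scale, the size of this difference is approximate. Which of the 3 annotated sequences gave this signal was not tested, and the value is not assigned to S100a11. S100a11 and S100a10 are neighbours on chromosome 3, with no other measured gene between them.

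Annexin A1, the partner of S100A11 and a mediator that dampens inflammation, was at 10.17 ± 0.06 in AID-/- against 10.54 ± 0.16 in AID+/+ leukaemia (SD, n = 3 each) at its brighter probe set. It fell by 0.37 (SE 0.10; limma adjusted p = 0.0430). That call was lost whichever array was left out, with adjusted p of 0.0559 to 0.119, and the dim second probe set of Anxa1 was at 3.42 to 3.52 in AID-/- and 3.30 to 3.36 in AID+/+ arrays.

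S100a13 takes part, with synaptotagmin 1, in the release of FGF1 from cells by a route that bypasses the secretory pathway. It read 9.15, 9.32 and 9.29 in AID-/- replicates 1, 2 and 3, and 8.20, 8.05 and 7.90 in AID+/+ replicates 1, 2 and 3. Every AID-/- array was above every AID+/+ array. The means were 9.25 ± 0.09 in AID-/- against 8.05 ± 0.15 in AID+/+ leukaemia (SD, n = 3 each), a difference of 1.21 (SE 0.11), and 1.13 to 1.28 with 1 array left out. Its complex partners Fgf1 and Syt1 did not pass, with differences of -0.36 (SE 0.13) and -0.03 (SE 0.08). Both were below the median of all probe sets in every array, which limits what can be said of their differences.

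S100a1, which is best known in heart muscle as a regulator of calcium release and uptake, lies head to head with S100a13. Its brighter probe set read 4.89, 4.98 and 5.14 in AID-/- replicates 1, 2 and 3, and 4.60, 4.82 and 4.43 in AID+/+ replicates 1, 2 and 3. The groups were adjacent without overlapping. The difference was 0.39 (SE 0.12), and at the other probe set it was 0.13 (SE 0.11), with overlapping groups. S100a1 did not pass the threshold, but it did with quantile normalization, with median centring and without AID+/+ replicate 2, with differences of 0.42, 0.41 and 0.49. The stretch between the annotated starts of S100a1 on the minus strand and S100a13 on the plus strand is shown because the transcripts point away from each other across it, while S100a13 differed by 1.21 and S100a1 by 0.39. It covers 104 bases of the plus strand at chr3:90514331-90514434 in RefSeq (GRCm38.p6), holds 3 CG dinucleotides and contains neither motif, so it is all in lower case.
S100a1 to S100a13: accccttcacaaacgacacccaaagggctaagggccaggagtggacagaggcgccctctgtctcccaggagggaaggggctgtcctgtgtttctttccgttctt

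S100a8 and S100a9 form calprotectin, the calcium- and zinc-binding complex that makes up much of the neutrophil cytosol. S100a8 read 3.18, 3.09 and 3.14 in AID-/- replicates 1, 2 and 3, and 3.35, 3.07 and 3.63 in AID+/+ replicates 1, 2 and 3. S100a9 read 3.36, 3.49 and 3.50 in AID-/- replicates 1, 2 and 3, and 3.42, 3.65 and 3.80 in AID+/+ replicates 1, 2 and 3. Both genes lay near or below the lower quartile of the scale in all 6 arrays, and their groups overlapped. The differences were -0.21 (SE 0.14) for S100a8 and -0.17 (SE 0.12) for S100a9, with ranges of -0.35 to -0.07 and -0.27 to -0.09 when 1 array was left out. S100a3, a zinc-binding protein of the hair cuticle, was likewise low, at 3.16 to 3.33 in AID-/- and 3.11 to 3.31 in AID+/+ arrays, with a difference of 0.01 (SE 0.10).

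Markers of neutrophils and monocytes were set beside these values. Of 15 listed markers 13 were measured, and 11 were below the median of all probe sets in both groups. Their summed log2 level was 52.9 to 54.3 in the AID-/- arrays and 52.7 to 54.9 in the AID+/+ arrays. The neutrophil granule genes Ltf, Camp, Ngp and Elane had means of 3.99 to 4.39 in AID-/- and 4.07 to 4.52 in AID+/+ leukaemia. Lyz2, the lysozyme of myeloid cells, was the 1 marker that passed, higher by 0.76 (SE 0.21; limma adjusted p = 0.0436). At an unadjusted p under 0.05 there were 5 of the 13, and 7 had groups without overlap, where 36.5% of all genes did, with differences in both directions, such as Csf1r at -0.30 (SE 0.09), Adgre1 at -0.43 (SE 0.14) and Itgam at 1.06 (SE 0.43). Of the T cell, erythroid and stromal or endothelial markers, limma called 0 of 6, 0 of 4 and 0 of 10, where 18.5% of all genes were called. At an unadjusted p under 0.05 there were 0, 1 and 0, and the share of all genes at that level is not given here. Of these markers 3, 3 and 8 were below the median of all probe sets in both groups, which limits what the absence of calls can show.

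**Figure D2:**
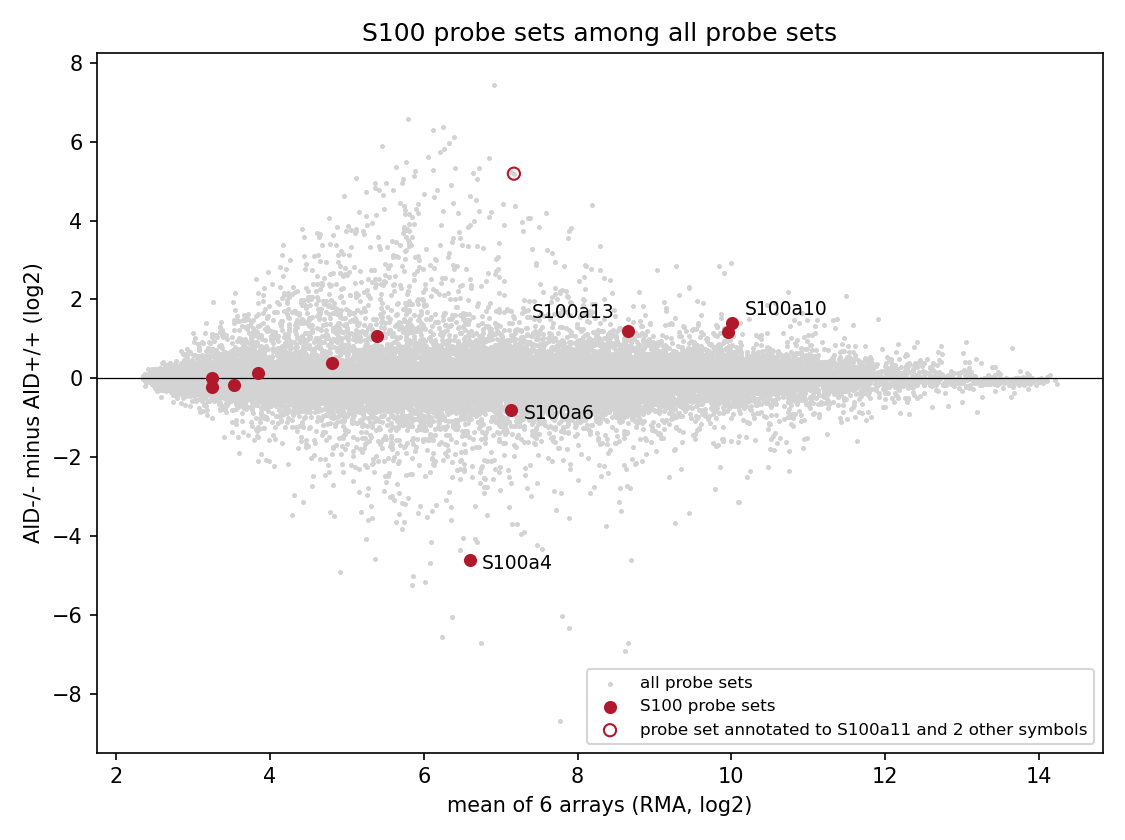
Difference between AID-/- and AID+/+ leukaemia (log2) against the mean of the 6 arrays (log2) for all 45037 probe sets in grey. The 11 probe sets of the S100 members are filled circles, and the probe set shared by S100a11 and 2 other symbols is an open circle. S100a4 lies at -4.61 and the shared probe set at 5.19. The S100a10 and S100a13 probe sets have differences of 1.09 to 1.40, and all but the dimmest of S100a10 are among the brighter probe sets.

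All 9 members lie on chromosome 3. In RefSeq order, counting measured genes only, S100a1 to S100a9 form one block interrupted by S100a14, S100a16 and S100a5, and S100a11 and S100a10 follow after 38 further genes, most of which encode skin barrier proteins. Along the block, the differences were 0.39 at S100a1 and 1.21 at S100a13, then 0.25, 0.04 and 0.01 at S100a14, S100a16 and S100a3. S100a4 followed at -4.61, S100a5 at 0.13, S100a6 at -0.81, S100a8 at -0.21 and S100a9 at -0.17.

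The genes around the S100 genes were taken as those between the outermost members and 10 more on each side. They were 57 measured genes without an S100 symbol. Flg, Hrnr, Rptn, Tchh and Tchhl1, which encode fused S100 proteins of the skin, were among them. Of the 57 genes, 3 passed as higher and 3 as lower, while 51 did not pass, where 18.5% of all genes were called. The median difference of the 57 was -0.06, against -0.03 over all genes. The groups did not overlap for 20 of the 57, where this held for 36.5% of all genes. Of the 57, 34 were below the median of all probe sets in both groups. Snapin, a SNARE-associated protein, measured 8.13 ± 0.14 in AID-/- against 9.09 ± 0.11 in AID+/+ leukaemia (SD, n = 3 each) and fell by 0.96 (SE 0.11; limma adjusted p = 0.000822), although its other probe set differed by only -0.17. Them4, a thioesterase close to S100a10, was at 6.13 ± 0.21 in AID-/- against 5.05 ± 0.18 in AID+/+ leukaemia (SD, n = 3 each), higher by 1.07 (SE 0.14; limma adjusted p = 0.00153). Its other probe set was higher by only 0.31 (SE 0.12). The zinc transporter gene Slc39a1 was higher by 0.43 (SE 0.11; limma adjusted p = 0.0265), and the cornified envelope gene Sprr1a fell by 0.41 (SE 0.10; limma adjusted p = 0.0284). Sprr1a was below the median of all probe sets in every array, and the fit without dim probe sets did not include it. Slc39a1 lost its call when any of AID-/- replicate 3, AID+/+ replicate 2 and AID+/+ replicate 3 was left out (limma adjusted p of 0.0856 to 0.103). Sprr1a kept its call when AID+/+ replicate 2 was left out and lost it when any other array was (limma adjusted p of 0.0541 to 0.109). Both missed the threshold without moderation (adjusted p = 0.0892). The number called higher was 1 when any of AID-/- replicate 3, AID+/+ replicate 2 and AID+/+ replicate 3 was left out. The number called lower was 1 when any of AID-/- replicate 3, AID+/+ replicate 1 and AID+/+ replicate 3 was left out.

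**Figure D3:**
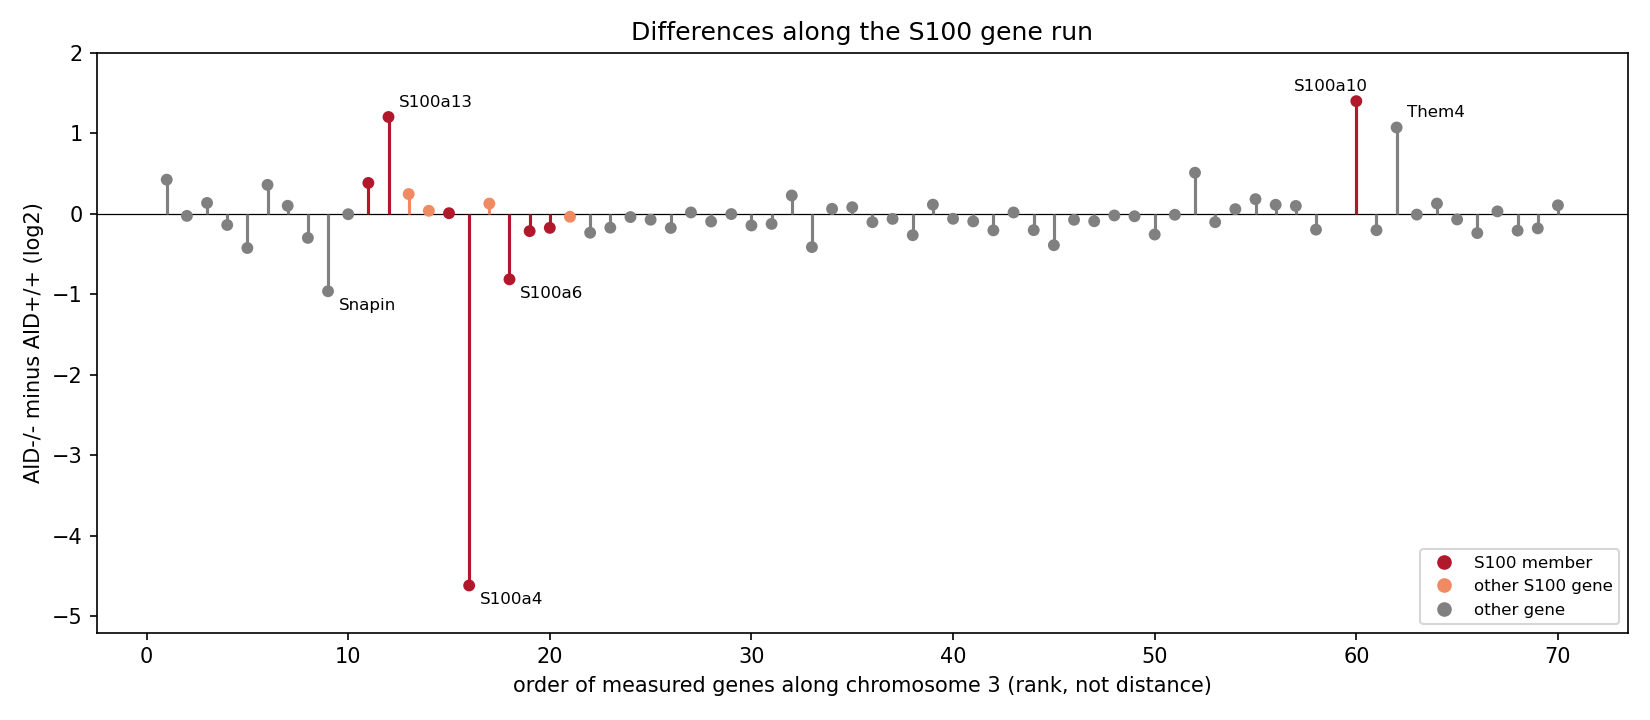
Difference between AID-/- and AID+/+ leukaemia (log2) for measured genes in their order along chromosome 3, where the axis is rank and not distance, with members in dark red, other S100 genes in orange and other genes in grey. S100a4 stands at -4.61 between S100a3 at 0.01 and S100a5 at 0.13, and S100a10 and Them4 are the higher genes at the far end.

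The rest of the S100 family was listed as S100 genes outside the members and genes for fused S100 proteins of the skin, such as filaggrin (Flg). Flg, Hrnr, Rptn, Tchh and Tchhl1 are also among the neighbours described above, so the lists overlap. Of 16 listed genes 11 were measured, and limma called 0 of them at the adjusted threshold, where 18.5% of all genes were called. Of the 11, 3 had groups without overlap, where 36.5% of all genes did. At an unadjusted p under 0.05 there were 2, S100a14 at 0.25 (SE 0.10) and the trichohyalin-like gene Tchhl1 at -0.19 (SE 0.08), and an ordinary linear model also called 0. All but one, S100a16, were below the median of all probe sets in both groups, and the median difference was 0.06. S100b, a glial marker, was at 4.05 ± 0.19 in AID-/- against 4.36 ± 0.23 in AID+/+ leukaemia (SD, n = 3 each) and did not pass.

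Genes listed as partners and receptors of S100 proteins went in both directions. Of 22 listed partners and receptors 20 were measured, with 3 higher, 3 lower and 14 not passing, and a median difference of -0.03, the same as over all genes, where 18.5% were called. Capzb, the beta subunit of the actin-capping protein CapZ, measured 11.47 ± 0.17 in AID-/- against 10.42 ± 0.20 in AID+/+ leukaemia (SD, n = 3 each), higher by 1.05 (SE 0.13; limma adjusted p = 0.00136). Whether this subunit of CapZ itself binds S100 proteins was not tested here. The other bright probe sets of Capzb differed by 1.04 and 0.88, and a dim one by -0.22. S100pbp, an S100P-binding protein described in human cells, fell by 0.99 (SE 0.19; limma adjusted p = 0.00960), at 8.11 ± 0.14 in AID-/- against 9.10 ± 0.40 in AID+/+ leukaemia (SD, n = 3 each). The liprin gene Ppfibp1, whose human protein binds S100A4, was higher by 0.47 (SE 0.08; limma adjusted p = 0.00704) at its brightest probe set, but the other probe sets of Ppfibp1 differed by -0.37 and -0.0043, and with probe sets averaged it did not pass, at 0.03 (adjusted p = 0.859). Atp2a2, the SERCA2 calcium pump that S100A1 regulates in heart, was higher by 0.41 (SE 0.09; limma adjusted p = 0.0144) at 1 of its 6 probe sets, a call lost without AID+/+ replicate 3 (adjusted p = 0.0558).

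Among the receptors, Tlr4, which binds S100A8 and S100A9 and was chosen after its values were seen, read 7.38, 7.29 and 6.72 in AID-/- replicates 1, 2 and 3, and 7.75, 7.91 and 8.13 in AID+/+ replicates 1, 2 and 3. It fell by 0.80 (SE 0.18; limma adjusted p = 0.0196), and its other probe sets differed by -1.01, -2.05 and -0.10. The call at the brightest probe set was lost without AID+/+ replicate 2 (adjusted p = 0.0615) or AID+/+ replicate 3 (adjusted p = 0.0799), and without either of these arrays 1 of the 20 partners was called lower. That call was also lost without moderation (adjusted p = 0.127). With its probe sets averaged, Tlr4 passed, at -0.99 (limma adjusted p = 0.000833). Ager, which encodes RAGE, and Bsg did not pass, with differences of -0.13 (SE 0.13) and 0.00 (SE 0.10). The S100A4 target Myh9 and the S100A6 target Cacybp did not pass either, at 0.24 (SE 0.11) and 0.00 (SE 0.08).

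**Figure D4:**
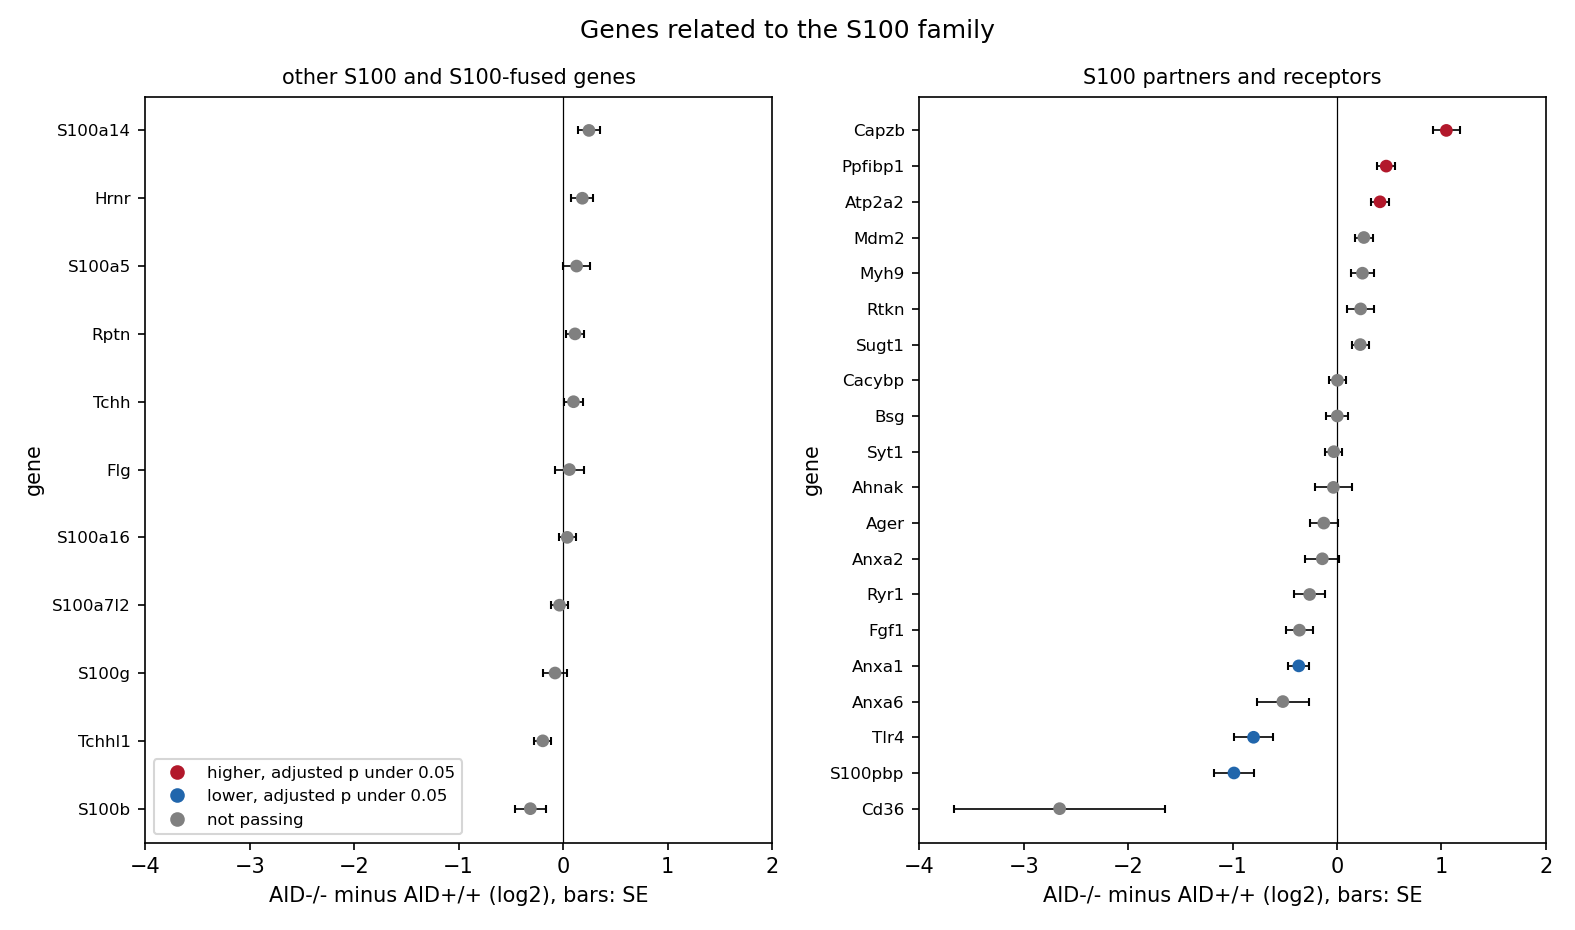
Difference between AID-/- and AID+/+ leukaemia (log2) with its moderated SE for other S100 and S100-fused genes (left) and for S100 partners and receptors (right), coloured by the limma call at an adjusted p under 0.05. The left panel stays between -0.31 and 0.25 without a call. The right panel runs from Cd36 at -2.66, which was not called, to Capzb at 1.05, with 3 genes higher and 3 lower.

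The genes whose profile over the 6 arrays was most like that of S100a4 were found by the Euclidean distance between values centred on each gene's mean. The 5 closest of the other genes were Klhdc1, Cd44, Akr1c13, Bmpr1a and Kctd15, at distances of 0.83, 0.90, 1.13, 1.17 and 1.40 log2 units. Cd44, the hyaluronan receptor, read 5.89, 5.62 and 4.62 in AID-/- replicates 1, 2 and 3, and 9.75, 9.72 and 9.63 in AID+/+ replicates 1, 2 and 3. All 5 were lower in AID-/- leukaemia, with differences of -4.60 to -3.88. The likeness rests mainly on the size of the difference between the groups, which these genes and S100a4 share over the same 6 arrays.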

How the data were processed

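The authors deposited log2 expression values, 1 column per array. Per the submitters' processing notes they were made with RMA and Partek, without versions. RMA removes background, normalises across arrays and combines the probes of each probe set. The array design and genome build are not given in the sources used here. The number of arrays, 3 per group, limits the precision, and array medians were 4.85 to 4.90.

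Of 45101 probe sets, 64 controls were left out. The platform annotation gave 34945 of the rest 1 symbol, 932 several and 9160 none, and 34741 were matched to RefSeq (GRCm38.p6) symbols by Entrez identifier. Each gene was read at the probe set that was brightest on average over the 6 arrays. Differences are AID-/- minus AID+/+ from limma 3.58.1 in R 4.3.3 (lmFit, eBayes, group only, two-sided, Benjamini-Hochberg over all genes or all probe sets, threshold 0.05), with the moderated SE. The fit was tested on simulated data. The members, gene lists and tests were chosen with earlier results of these data known. From each list, up to 4 genes past the threshold with the smallest p were named, besides Anxa1, Anxa2 and all members. Genes named beyond that rule were chosen after their values were seen. No p-value is printed for a member, and those of other genes are limma's.

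Same-numbered replicates did not deviate together (their residuals around the group means correlated at -0.05, -0.07 and 0.03), so they were not paired. Alternatives were quantile normalization, median centring, a replicate block, no dim probe sets, an intensity trend, no moderation, averaged probe sets and leaving out each array.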

Additional observations from a re-analysis of the deposited data

How the results depend on the processing

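The differences of S100a4, S100a10 and S100a13 kept their direction and their side of the threshold in every alternative run. Averaging probe sets gave 1.22 for S100a10. No other member's difference moved by more than the larger of its AID-/- and AID+/+ SDs, although some, such as that of S100a8, moved by more than the smaller. With 1 array left out, 1 to 2 member genes and 1 to 2 member probe sets were called lower, the second being S100a6 without AID-/- replicate 2, and 2 to 3 genes and 4 to 5 probe sets higher, the third gene being S100a1 without AID+/+ replicate 2. S100a1 also passed with quantile normalization and with median centring. Among partners and receptors, 2 to 3 were then higher and 1 to 3 lower. Among neighbours, 1 to 3 were higher and 1 to 3 lower. Averaging probe sets left 1 partner called higher. Without moderation 0 partners were called lower, and 1 neighbour was called higher and 1 lower. The replicate block gave -4.61 for S100a4, with 3 partners higher and 2 lower, since Anxa1 did not pass (limma adjusted p = 0.0621), and 2 neighbours higher and 2 lower, since Slc39a1 and Ilf2 did not pass (limma adjusted p = 0.0696 and 0.0966). It changed no member's call. The low values of S100a3, S100a8 and S100a9 limit what can be said of their differences, and leaving out dim probe sets removed these genes and S100a1.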

Other observations

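Among the listed partners and receptors of S100 proteins, Cd36, a scavenger receptor for fatty acids, was uneven within AID-/- leukaemia. It read 4.55, 4.25 and 8.60 in AID-/- replicates 1, 2 and 3, and 8.25, 8.44 and 8.69 in AID+/+ replicates 1, 2 and 3. AID-/- replicate 3 thus lay among the AID+/+ arrays, and at the other 2 probe sets of Cd36 that array, at 8.20 and 5.53, was above all of them. The difference of -2.66 (SE 1.01) did not pass (limma adjusted p = 0.115). Itgam, the integrin alpha M gene of myeloid cells, was at 5.54 in AID-/- replicate 3, against 4.03 and 3.64 in the other AID-/- arrays and 3.16 to 3.58 in the AID+/+ arrays (limma adjusted p = 0.139). Both genes were chosen after their values were seen.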
